A study of Homo sapiens with 4 samples.

Results

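The keratin gene family was examined in SW480 cells, an established line from a human colorectal adenocarcinoma, after transduction to raise or lower HOXA5, a homeobox transcription factor. The members were the probe sets, the small groups of array probes that report 1 transcript, whose platform annotation gave a single keratin symbol; pseudogenes and keratin-associated proteins were not taken. This gave 56 probe sets of 54675, which reported 44 of the 19775 genes tested: 24 type I and 20 type II keratins. Another 11 keratin genes of the current RefSeq gene table had no such probe set and were not analysed here: KRT6A, KRT6B, KRT6C, KRT17, KRT26, KRT28, KRT34, KRT39, KRT81, KRT82 and KRT86.

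There were 2 arrays of SW480 cells with HOXA5 knock-down and 2 of SW480 cells with HOXA5 overexpression, and no untransduced or vector control array was analysed. A difference is given as overexpressing minus knock-down throughout and cannot be assigned to either manipulation. As nothing in the labels tells whether replicates were grown separately, p-values rest on a spread that may be technical only. HOXA5 itself was not analysed here, so the labels were not checked on the manipulated gene. In bulk RNA, fewer cells expressing a gene and less RNA per cell cannot be told apart.

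Keratins are the intermediate filament proteins of epithelial cells. A filament is built from pairs of 1 acidic type I chain and 1 basic type II chain, so a cell needs both kinds, and the pair used marks the kind of epithelium. Simple epithelia such as the gut lining use KRT8 with KRT18, joined in the intestine by KRT19 and KRT20, whereas the basal layer of stratified epithelia uses KRT5 with KRT14. Apart from KRT18, which lies beside KRT8, the type I genes sit in 1 chromosomal cluster and the type II genes in another.

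The values were RMA log2 expression levels, with array medians between 5.77 and 5.81 and lower quartiles between 4.24 and 4.28. Arrays of 1 group correlated at 0.997 over all probe sets, and arrays of different groups at 0.991 to 0.993. RMA gives no detection call, so a low value cannot be marked as absent. The summed linear signal of 12 colorectal epithelial markers was 2021 and 2229 after knock-down and 2117 and 2212 after overexpression. Within that list EPCAM, the epithelial adhesion molecule, stood at 3.81 and 3.65 against 8.80 and 8.75. The tight junction gene CLDN4 also rose, from scattered knock-down values of 5.25 and 6.06 to 6.80 and 7.03 (limma adjusted p = 0.047). CDX2 rose as well, and ELF3 fell. These 3 rises and 1 fall were all that passed in limma among the 12, against 2.74% and 2.03% of all genes. An unadjusted p under 0.05 was seen in 7 of the 12, against 18.6% of all genes. The tight junction genes CLDN3 and CLDN7 differed by -0.37 and -0.43 without passing, and the weaker probe set of CLDN4 by 0.003. Tested over all probe sets, the brightest ones of CLDN4 and CDX2 did not pass (limma adjusted p = 0.089 and 0.060). None of 6 fibroblast, 3 endothelial and 3 blood-cell markers passed in limma on its brightest probe set; 1, 1 and 0 of them had an unadjusted p under 0.05. Of all 23 fibroblast marker probe sets 1 passed, named here after its values were seen: the second probe set of LUM, a matrix proteoglycan, at 2.48 and 2.66 against 4.82 and 4.65, a rise of 2.16 (limma adjusted p = 7.93e-04 over all probe sets). The brightest LUM probe set, hardly brighter on average, read 3.87 and 3.68 against 3.63 and 3.68. The epithelial marker VIL1 likewise rose on a pair of weaker probe sets, by 0.78 and 0.85, and differed by 0.02 on its brightest. The summed linear signals of the fibroblast, endothelial and blood-cell lists, from the brightest probe sets, were 901 to 973, 267 to 297 and 136 to 155, and their part in the keratin results was not tested.

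The overexpressing arrays held more transcript of KRT23, KRT19 and KRT5, by 24.7-, 20.9- and 13.9-fold, and of KRT71 by 1.91-fold. These folds are not exact ratios of transcript: the knock-down values of KRT23 and KRT19 lay near the lower quartile of the arrays, where RMA compresses differences, so no order is read from them. No keratin fell. Of the 44 genes, 4 rose (9.09%) in limma at an adjusted p of 0.05, against 2.74% of all genes tested, and 0 fell, against 2.03%; 8 of the 44 had an unadjusted p under 0.05 in either direction, against 18.6% of all genes. Of the 4 keratins that rose, KRT19 and KRT23 are type I and KRT5 and KRT71 are type II. The members are genes and not replicates, so the family as a whole was not tested.

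**Figure D1:**
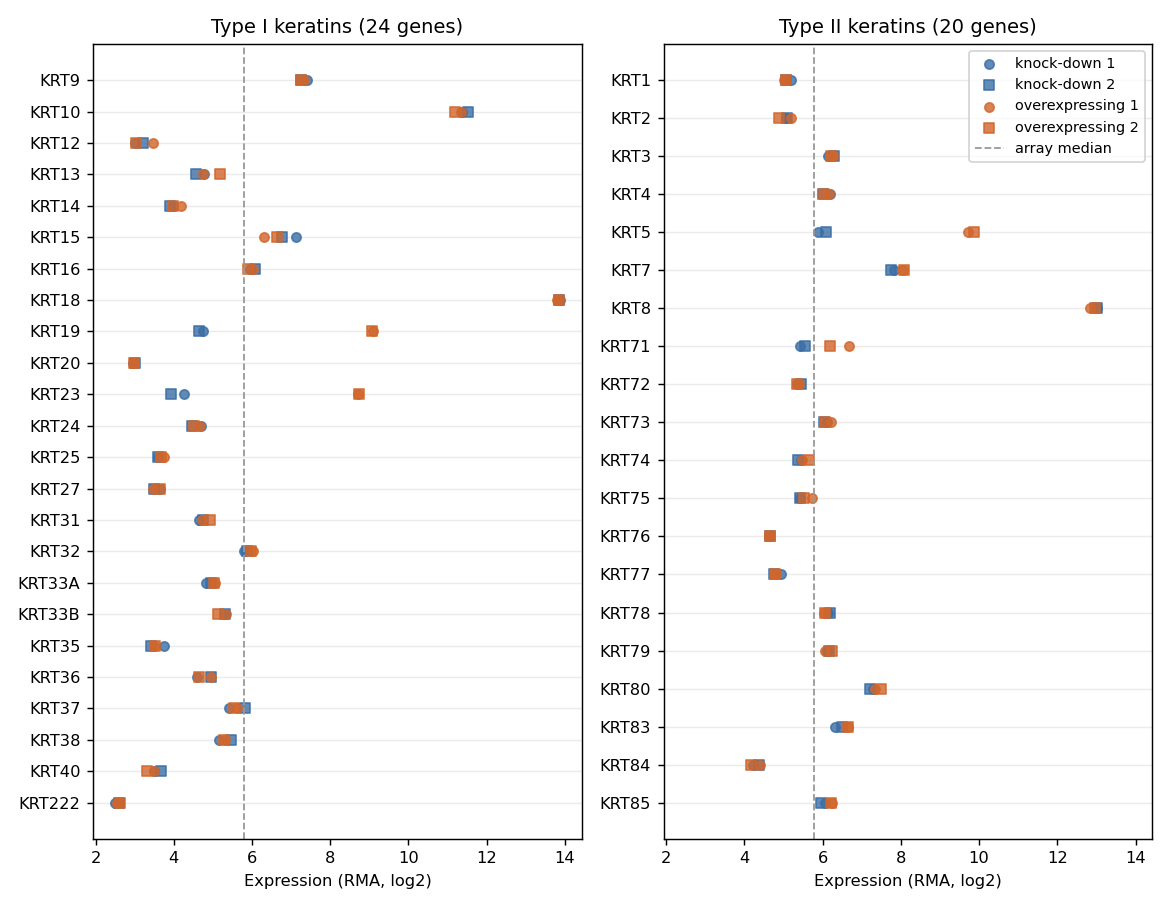
Expression level (RMA, log2) of each keratin gene on each of the 4 arrays, from its brightest probe set; blue points are knock-down and orange points overexpressing arrays, circles replicate 1 and squares replicate 2, and the dashed line is the mean of the array medians. KRT19, KRT23 and KRT5 stand far to the right in the overexpressing arrays only, from 8.72 (KRT23) to 9.86 (KRT5), while KRT8, KRT18 and KRT10 are high on all 4 arrays.

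KRT23, a type I keratin of simple epithelia, was at 4.26 and 3.94 after HOXA5 knock-down and at 8.72 and 8.74 with overexpression. The knock-down values lay close to the lower quartile of the array or under it, and both overexpressing values were far above the array median. The difference was 4.62 ± 0.12 on the log2 scale (SE, n = 2 per group, limma adjusted p = 2.33e-05). This gene was read by a single probe set, so no other probe set could be set beside it.

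KRT19, the smallest type I keratin, which lacks the tail domain and is found in gut and duct epithelium, was at 4.74 and 4.65 after knock-down and at 9.08 on both overexpressing arrays. The groups were far apart, with a difference of 4.38 ± 0.08 (SE, n = 2 per group, limma adjusted p = 8.24e-06). A second probe set of KRT19 read 4.64 and 4.68 against 4.81 and 4.58, so that its groups overlapped. After knock-down both probe sets were thus at about the same level, and the first was the brighter one only through the overexpressing arrays. The difference of the second was 0.04, with a 95% confidence interval from -0.22 to 0.29, which does not reach that of the first. The mean of both probe sets rose by 2.21 (adjusted p = 2.81e-05). Which of these probe sets reports the KRT19 transcript better was not tested.

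KRT5, the type II keratin of basal cells in stratified epithelium, was at 5.89 and 6.09 after HOXA5 knock-down and at 9.72 and 9.86 with overexpression. The knock-down values were just above the array median, and the groups did not overlap. The difference was 3.80 ± 0.10 (SE, n = 2 per group, limma adjusted p = 2.33e-05). Of all genes tested, 16 (0.0809%) passed with a log2 rise of 3.5 or more, and KRT23, KRT19 and KRT5 were among them. In the fits over genes, the calls on these 3 keratins held whichever array was left out. Their differences then lay between 3.70 (KRT5) and 4.79 (KRT23). Over all probe sets, calls among them were lost in part of such fits. Each such fit leaves 1 array in a group, which is assumed to vary like the remaining pair of the other group and like genes in general, so calls that held or were lost this way are a limited check.

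KRT71, a type II keratin of the inner root sheath of the hair follicle, was at 5.43 and 5.56 after HOXA5 knock-down and at 6.67 and 6.19 with overexpression. The groups did not overlap, but the overexpressing arrays differed from each other more than those of any other keratin that rose. The difference was 0.94 ± 0.16 (SE, n = 2 per group, limma adjusted p = 0.029). The call was lost without knock-down replicate 1 (adjusted p = 0.24), knock-down replicate 2 (0.22) or overexpressing replicate 1 (0.11), and it held without overexpressing replicate 2 (0.043). It was also missed when every probe set was tested in place of 1 per gene (adjusted p = 0.062).

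In the RefSeq gene order KRT71 is the direct keratin neighbour of KRT5, and the next gene is KRT74, another inner root sheath keratin. KRT74 was chosen for description after its values were seen. Its brightest probe set differed by 0.16 (adjusted p = 0.45), while its other probe set, nearly as bright, read 5.09 and 4.98 after HOXA5 knock-down and 5.55 and 5.97 with overexpression. Neither probe set passed, the second with a difference of 0.73 ± 0.15 (SE, n = 2 per group, limma adjusted p = 0.092 over all probe sets). The following genes KRT72 and KRT73 differed by -0.02 and 0.06. On the other side of KRT5 the nearest keratin measured was KRT75, with a difference of 0.19 (adjusted p = 0.34).

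**Figure D2:**
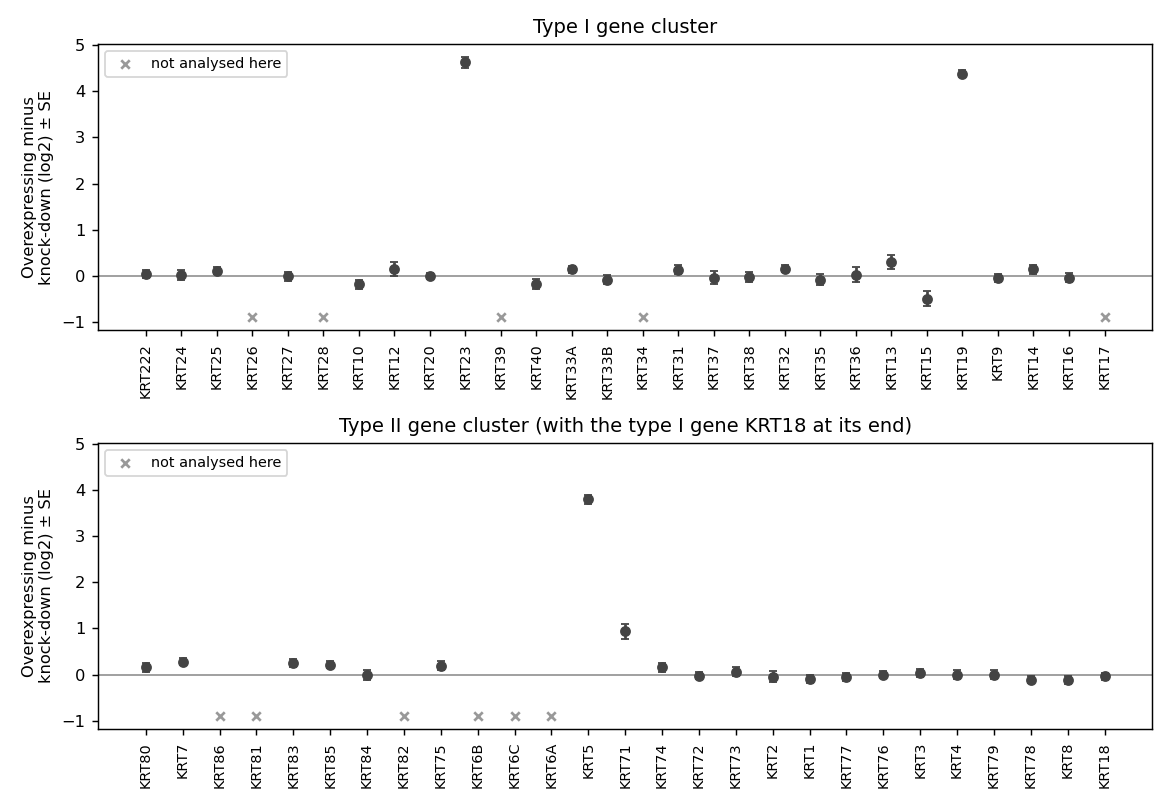
Difference between overexpressing and knock-down arrays (log2, ± SE from limma, n = 2 per group) for keratin genes in their RefSeq order along the type I cluster (top) and the type II cluster (bottom); crosses at the bottom mark keratins that were not analysed here. KRT23 and KRT19 stand apart at 4.62 and 4.38. KRT13 at 0.30 and KRT15 at -0.49 lie before KRT19, and KRT20 at -0.002 lies before KRT23. KRT5 at 3.80 is followed by KRT71 at 0.94 and KRT74 at 0.16.

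The stretches before the start sites of these type II genes are shown because KRT5 and KRT71 rose in the same arrays. KRT74 passed on neither probe set and was added after its values were seen. KRT73, a nearby gene that did not pass either, is shown for comparison. KRT72, between KRT74 and KRT73, had no such stretch on record, and that of KRT75 is not shown. They come from RefSeq on GRCh38.p14 and hold the 250 bases before the first listed start, 5′ to 3′ on the gene's own strand, which is the minus strand in all 4. KRT5 covers chr12:52520395-52520644, KRT71 chr12:52553146-52553395, KRT74 chr12:52573844-52574093 and KRT73 chr12:52618560-52618809. Capitals mark TAATTA, the core that many homeodomain proteins recognise, and the last ATAAA, a part of the TATA box core TATAAA. The full TATAAA stands at the mark in KRT71 and KRT73 and not in KRT5 and KRT74.
KRT5: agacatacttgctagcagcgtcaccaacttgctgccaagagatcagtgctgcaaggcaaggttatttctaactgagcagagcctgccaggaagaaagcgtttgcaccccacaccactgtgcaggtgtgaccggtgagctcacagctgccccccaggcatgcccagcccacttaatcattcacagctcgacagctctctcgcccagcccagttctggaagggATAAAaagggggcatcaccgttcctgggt
KRT71: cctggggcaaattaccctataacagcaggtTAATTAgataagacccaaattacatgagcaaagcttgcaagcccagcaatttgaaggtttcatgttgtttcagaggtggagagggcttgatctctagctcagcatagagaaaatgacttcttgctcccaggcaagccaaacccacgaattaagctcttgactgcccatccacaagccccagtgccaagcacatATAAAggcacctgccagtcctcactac
KRT74: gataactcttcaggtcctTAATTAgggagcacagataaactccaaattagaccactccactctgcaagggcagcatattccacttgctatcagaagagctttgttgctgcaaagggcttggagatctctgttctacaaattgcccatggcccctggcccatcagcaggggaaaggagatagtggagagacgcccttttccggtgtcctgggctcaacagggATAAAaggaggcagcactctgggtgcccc
KRT73: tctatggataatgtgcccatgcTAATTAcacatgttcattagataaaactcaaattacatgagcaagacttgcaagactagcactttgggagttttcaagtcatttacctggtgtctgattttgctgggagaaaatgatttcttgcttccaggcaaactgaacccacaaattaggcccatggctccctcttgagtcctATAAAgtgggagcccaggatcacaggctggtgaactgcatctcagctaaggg

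The last ATAAA began 29 bases before the start in KRT5, 27 in KRT71, 29 in KRT74 and 52 in KRT73. TAATTA, which reads the same on both strands, began 220 bases before the start in KRT71, 232 in KRT74 and 228 in KRT73, and it was not found in the KRT5 window. The longest run of letters shared by KRT71 and KRT73 was 16 bases, caaattacatgagcaa, while KRT5 shared at most 10 with KRT74, agggataaaa, which includes the ATAAA. KRT73, whose level differed by 0.06, carried both TAATTA and the run shared with KRT71. Whether any of these letters bear on the levels was not tested.

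Over the 29 keratin genes with an entry in the promoter table, TAATTA was found in 8 windows (3 of 16 type I and 5 of 13 type II), against 4.49% of all 27305 gene windows of that length. ATAAA on either strand was found in 27 of the 29, against 33.7% of all windows. The T-cell factor letters CTTTG followed by 2 letters that are each A or T, on either strand, were in 11 of the 29, KRT74 among them and KRT5 and KRT71 not, against 12.1%. TGANTCA, the AP-1 letters, were in 0 of the 29, against 6.6%. None of these motifs contains another, and a match is a description of the window only. KRT19 and KRT23 had no entry.

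Besides KRT19 and KRT23, no measured gene of the type I cluster passed. Among the keratins in gene order KRT15, a keratin of basal and stem cells of stratified epithelium, lies directly before KRT19 and KRT9 directly after it. KRT15 was at 7.14 and 6.78 after HOXA5 knock-down and at 6.29 and 6.63 with overexpression. These groups did not overlap but were scattered, and the difference of -0.49 ± 0.16 did not pass (SE, n = 2 per group, limma adjusted p = 0.17). KRT9 differed by -0.04 and KRT20, which lies directly before KRT23, by -0.002. The nearest measured genes outside the keratin family were SMARCE1 and EIF1 at the ends of the type I cluster, with differences of 0.03 and -0.04, and ATG101 and EIF4B at the ends of the type II cluster, with -0.08 and 0.003 (lowest adjusted p 0.65).

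The remaining simple-epithelial keratins showed small differences. KRT8 and KRT18, the filament pair of simple epithelium, were near the top of the scale on every array: KRT8 at 13.01 and 13.03 against 12.84 and 12.97, and KRT18 at 13.86 and 13.85 against 13.79 and 13.84. Their overexpressing values were all slightly lower, by 0.11 for KRT8 (95% confidence interval of the difference -0.31 to 0.08) and by 0.04 for KRT18 (-0.22 to 0.14). Neither passed (adjusted p = 0.55 and 0.86), and each is read by 1 probe set of the kind whose probes can match several transcripts, so signal from related copies is not separated.

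KRT7, a type II keratin of ducts and glands, was at 7.83 and 7.75 against 8.04 and 8.09. The groups did not overlap, but the difference of 0.28 did not pass (adjusted p = 0.12). It passed at 0.039 when only genes above the median level were tested, and its other 3 probe sets differed by 0.11, 0.01 and -0.09. KRT20, the keratin of mature enterocytes, was at 2.95 and 2.998 against 2.97 on both overexpressing arrays, near the bottom of the scale. Of the 6 measured simple-epithelial keratins, KRT19 and KRT23 thus rose and KRT7, KRT8, KRT18 and KRT20 did not pass.

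Stratified-epithelial keratins other than KRT5 did not pass. Of 18 measured genes, 1 rose, 0 fell and 17 did not pass, with a median difference of -0.01. KRT14, the usual type I partner of KRT5, was at 3.98 and 3.90 after HOXA5 knock-down and at 4.19 and 3.98 with overexpression, below the lower quartile on each. Its difference was 0.14, with a 95% confidence interval from -0.09 to 0.38. That interval measures the spread between arrays only. KRT14 was read by 1 probe set at this low level, so the interval cannot tell whether its transcript rose like KRT5. KRT16, a type I keratin induced in stressed epidermis, differed by -0.04, and KRT13, of internal stratified epithelia, by 0.30 with overlapping groups (4.78 and 4.57 against 4.75 and 5.19). KRT80, a widely expressed type II keratin, was at 7.30 and 7.20 against 7.33 and 7.49.

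KRT10, which pairs with KRT1 in the upper epidermis, was high on all 4 arrays at 11.38 and 11.52 against 11.35 and 11.18. Its 3 probe sets gave nearly the same difference, -0.18, -0.19 and -0.20, without overlap between the groups in any of them, and none passed (adjusted p of 0.35 to 0.50 over all probe sets). KRT1 was at 5.19 and 5.07 against 5.005 and 5.07, below the array median throughout.

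Keratins of the hair follicle were mostly near or below the array median. Of 12 measured hair shaft keratins none passed in limma (2 with an unadjusted p under 0.05), with differences from -0.18 (KRT40) to 0.25 (KRT83). KRT83 was at 6.32 and 6.49 against 6.66 and 6.65, and KRT85 at 6.06 and 5.95 against 6.23 and 6.21. KRT83 and KRT85 are type II and did not pass in limma (adjusted p = 0.19 and 0.22). Groups without overlap, higher in the overexpressing arrays, were seen in 4 of the 12 (33.3%), against 19.1% of all genes. They were KRT83, KRT85 and the type I genes KRT32 and KRT33A, and the gap was not tested. Of 7 root sheath keratins KRT71 rose and the other 6 did not pass; KRT75 was at 5.42 and 5.43 against 5.72 and 5.51.

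Type I and type II genes were then set side by side. Of 24 type I genes, 2 rose (8.33%) and 22 did not pass. Of 20 type II genes, 2 rose (10%) and 18 did not pass. Over all genes 2.74% rose and 2.03% fell, and these gaps were not tested. The median difference was 0.01 for type I and 0.02 for type II, against -0.02 over all genes tested. Below the array median on all 4 arrays were 15 type I and 8 type II genes. RMA compresses low values, so medians near 0 do not show that the transcripts were unchanged. Differences within 0.3 on the log2 scale were seen in 21 type I and 18 type II genes.

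The mean level over the type I genes was 5.29 on each knock-down array, against 5.68 and 5.65 with overexpression. Over the type II genes it was 6.14 and 6.15 against 6.44 and 6.40. Without the genes that rose, the type I mean was 5.36 and 5.39 against 5.39 and 5.36, and the type II mean 6.19 and 6.18 against 6.25 and 6.23. The shift of the type means lay mostly in KRT19 and KRT23 for type I and in KRT5 and KRT71 for type II. These genes were left out because they rose on the same arrays, so a smaller shift without them follows from that choice.

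Groups without overlap, higher in the overexpressing arrays, were seen in 5 of 24 type I genes (20.8%) and 8 of 20 type II genes (40%), against 19.1% of all genes. In the other direction there were 3 type I genes (12.5%) and 2 type II genes (10%), against 27.8% of all genes. In the higher direction the type I share was near that of all genes and the type II share above it, and in the lower direction both were below it; none of these gaps was tested, and 6 of the 8 type II genes differed by 0.28 or less. With 2 arrays a group an exact two-sided permutation test of 1 gene cannot go below 0.333. On all 4 arrays, 6 type I and 11 type II genes were above the array median and 15 and 8 below it; KRT37, KRT71, KRT19 and KRT23 were on different sides of the median on different arrays.

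Over all 56 keratin probe sets, 3 rose, against 1.36% of all 54613 probe sets tested, and 0 fell, against 0.613%; 9 of the 56 (16.1%) had an unadjusted p under 0.05 in limma, against 14.6% of all probe sets, so this count was near the background. The 3 that rose were the brighter probe set of KRT19 and the single ones of KRT23 and KRT5. Of the 9 keratins with more than 1 probe set, KRT19 and KRT74 had probe sets that differed from each other by over 0.5, and in the other 7 genes all probe sets lay between -0.20 and 0.28.

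**Figure D3:**
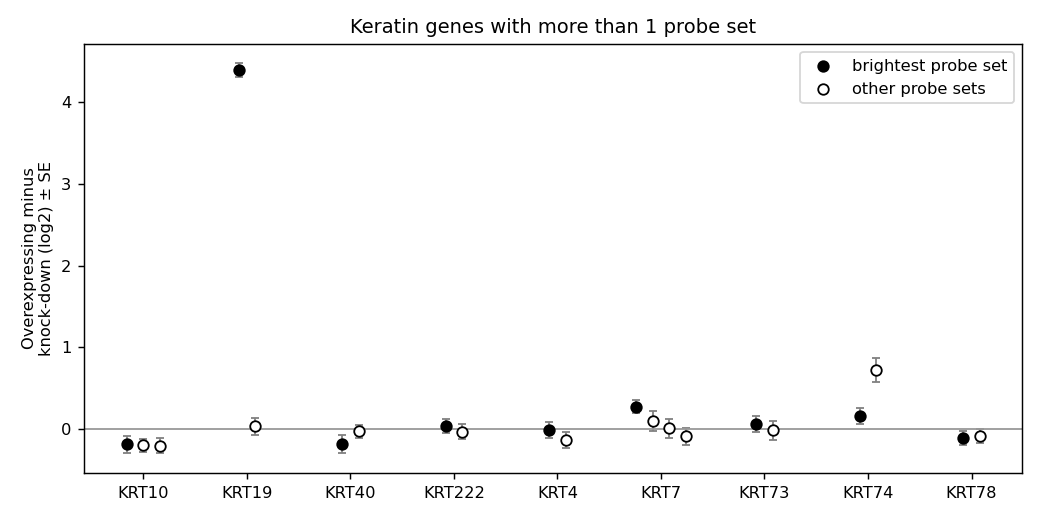
Difference between overexpressing and knock-down arrays (log2, ± SE from limma over all probe sets, n = 2 per group) for every probe set of the 9 keratin genes that have more than 1; filled points are the brightest probe set of a gene. KRT19 has 1 probe set at 4.38 and 1 at 0.04, KRT74 has 0.16 and 0.73, and the 3 of KRT10 lie together at -0.18 to -0.20.

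Of 77 measured genes in 6 lists of other intermediate filaments and genes that act with keratins, 7 rose (9.09%), against 2.74% of all genes, and 4 fell (5.19%), against 2.03%; these gaps were not tested. Of 18 other intermediate filament genes 3 fell and 0 rose: BFSP1, a beaded filament protein of the lens, by 0.89, the syncoilin gene SYNC by 0.85 and the synemin gene SYNM by 0.41 (adjusted p = 0.0055, 0.0074 and 0.044). VIM, encoding vimentin, the filament of mesenchymal cells that carcinoma lines often also express, was at 12.71 and 12.72 against 12.62 and 12.77. Its groups overlapped, and the difference of -0.02 turned to 0.05 without overexpressing replicate 1. The list's median was -0.02, the same as over all genes. Calls on BFSP1 and SYNM were lost whichever array was left out, and that on SYNC without 3 of the 4. Tested over all probe sets, SYNM did not pass (limma adjusted p = 0.095).

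In the desmosome, the junction to which keratin filaments attach, 1 of 14 genes rose and 0 fell (median -0.02). This was the plakophilin gene PKP2, at 5.76 and 5.83 against 6.59 and 6.58 (adjusted p = 0.0031); its weaker probe set differed by -0.07, and the call was lost whichever array was left out. Of 13 plakins and keratin linkers 1 rose and 0 fell (median 0.03). ITGA6, the integrin chain of the hemidesmosome that anchors basal keratins such as KRT5, was at 6.54 and 6.52 against 7.90 and 8.05. It rose by 1.45 ± 0.08 (SE, n = 2 per group, limma adjusted p = 4.6e-04), by 1.09 on its other probe set, and held whichever array was left out. Its partner chain ITGB4 differed by 0.32 without passing. CSNK1A1, a kinase read by 13 probe sets, did not pass on its brightest one (0.02). Of the 13 only 1 weaker probe set passed (0.57, limma adjusted p = 0.036 over all probe sets). This gene is named after its values were seen.

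None of 10 cornified envelope genes, which are made with keratins in the upper epidermis, passed in limma (2 with an unadjusted p under 0.05, median -0.01); the brightest, CNFN and TGM1, differed by -0.07 and 0.04. Of 13 transcription factors of epithelial keratin genes, 3 rose and 1 fell (median -0.002). KLF5, a factor of proliferating epithelium, was at 6.49 and 7.05 against 7.98 and 8.58 (adjusted p = 0.024). Its weaker probe set rose by 1.33 (limma adjusted p = 0.0075 over all probe sets). In that fit the brightest KLF5 probe set narrowly missed the threshold (limma adjusted p = 0.0502). OVOL2, a zinc finger factor of epithelia, rose by 0.53 (0.09 on its weaker probe set, and not past the threshold as a mean of both, adjusted p = 0.058). Its brightest probe set did not pass over all probe sets (limma adjusted p = 0.066). CDX2, the intestinal homeobox factor, rose by 0.51, and its weaker probe set differed by 0.52. Tested over all probe sets, neither of the CDX2 probe sets passed (limma adjusted p = 0.060 and 0.16). ELF3, an epithelial ETS factor, fell by 0.69. Its weaker probe sets differed by -0.62 and -0.37 (limma adjusted p = 0.024 and 0.11 over all probe sets). All 4 of these calls were lost whichever array was left out. Of 9 chaperones and modifiers of keratin 2 rose and 0 fell (median -0.07): TGM2, a transglutaminase, by 1.32 and DNAJB6, a co-chaperone of KRT18, by 0.90. The call on TGM2 held whichever array was left out, with 0.42, 0.38 and -0.13 on its weaker probe sets, and that on DNAJB6 was lost without 3 of the 4.

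**Figure D4:**
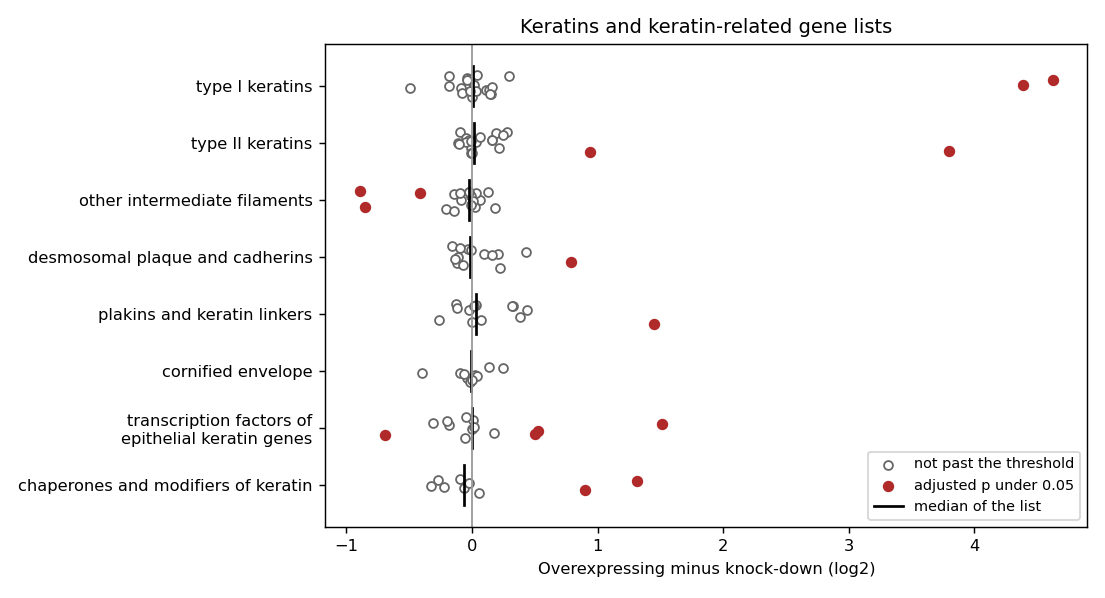
Difference between overexpressing and knock-down arrays (log2) of every measured gene in the type I and type II keratins and in 6 lists of keratin-related genes; red points passed an adjusted p of 0.05 in limma, open points did not, and black bars are list medians. The medians lie between -0.07 and 0.03, while KRT23, KRT19 and KRT5 lie at 3.80 or above.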

How the data were processed

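The authors deposited log2 expression values per probe set, made with affy and RMA, per the submitters' processing notes, with no version or build stated there. The RMA method corrects background, equalises the distributions of the arrays and summarises probes, so values are relative and compress near the floor. Of 54675 probe sets, 62 were controls and 41091 had a single gene symbol in the platform annotation. Each gene was read from its brightest probe set by the mean of all arrays. Groups and replicate numbers came from the sample titles.

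Groups were compared with limma (version 3.58.1, R 4.3.3; lmFit and eBayes, group only, two-sided) over all 19775 genes and, separately, over all 54613 probe sets, with Benjamini-Hochberg adjustment and a threshold of 0.05. Tests were checked on simulated data. No depth applies to arrays, and their number limits the precision.

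Named were all keratins that passed, KRT7, KRT8, KRT18, KRT19, KRT20, KRT23, KRT5, KRT14 and KRT80, the 6 largest others, up to 4 members per related list that passed (or else its 2 brightest), VIM and neighbouring genes; other keratins were named to complete a description. The members and lists were chosen with earlier results of these data known. Alternatives covered the variance model, replicate block, scaling, dim genes, probe set choice, threshold and left-out arrays.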

Additional observations from a re-analysis of the deposited data

How the results depend on the processing

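The number of keratin genes that rose stayed between 3 and 4 and the number that fell at 0 under every alternative tried. In the fits over genes, KRT19 and KRT5 passed under all of them, and KRT23 under all in which it was tested. Over all probe sets, calls among these keratins were lost in part of the fits with 1 array left out. Passing with only genes above the median level adds no support, since KRT19 and KRT5 exceed that level (6.80) only through the overexpressing arrays. Leaving out 1 array gave 1 to 2 type II genes called, 1 to 3 probe sets that rose, and medians of -0.019 to 0.095 for type I and 0.0079 to 0.073 for type II. The replicate block, for replicate numbers that only name the samples (correlation of deviations 0.15), left 1 type II gene called: KRT71 did not pass (adjusted p = 0.093), nor did SYNM, OVOL2 and CDX2. A threshold of 0.01 also left 1 type II gene. Probe sets that rose numbered 5 with an intensity trend and robust moderation and 5 at a threshold of 0.1. With only genes above the median level, 1 type I gene was called, since KRT23 was not tested, KRT7 took the place of KRT71, and the medians were -0.040 and 0.22 over 4 genes of each type, 1 of each (KRT19 and KRT5) admitted by its own rise. Without probe sets of shared probes (both suffix kinds), 1 type I gene was called because KRT23 has no other, and the type II median was 0.047. Differences near 0 changed sign: KRT20 was 0.016 after a second quantile normalization and -0.027 to 0.022 with 1 array left out. EIF4B was -0.012 with centred arrays, -0.026 as a mean of probe sets and -0.026 to 0.031 with 1 array left out; EIF1 was 0.075 as a mean of probe sets, and VIM (-0.098 to 0.054) and SMARCE1 (-0.021 to 0.081) changed sign without overexpressing replicate 1. Over all genes, 542 higher and 402 lower calls became 889 and 933 with the intensity trend, 345 and 175 with the block, 550 and 808 above the median level, and 141 to 194 and 31 to 49 with 1 array left out. The cause of these shifts was not tested.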

Other observations

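Some probe sets were named for keratin pseudogenes, an antisense RNA or several genes and were not members. A pseudogene of KRT8, KRT8P12, was read by 2 probe sets, at 7.89 and 7.77 against 7.54 and 7.54 (knock-down against overexpressing) and at 8.43 and 8.26 against 8.24 and 7.72. Both were lower in the overexpressing arrays without overlap, by 0.29 and by 0.36, and neither passed in limma (adjusted p = 0.20 and 0.43 over all probe sets). KRT19P2, a pseudogene of KRT19, differed by 0.01 on the probe set that names it alone (adjusted p = 0.995), at a level of 5.88 to 5.96 on all 4 arrays, whereas a probe set that names it with a microRNA differed by 0.33 (adjusted p = 0.17). The antisense RNA KRT10-AS1 differed by -0.18, at 10.00 and 9.96 against 9.78 and 9.81 (adjusted p = 0.39), beside -0.18 to -0.20 on the probe sets of KRT10.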
